A study of Mus musculus with 16 samples.

Results

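The 8 genes described here are read in immunology as marks of killer and innate-like lymphocytes: Gzma, Gzmb, Prf1 and Nkg7 of the cytotoxic granule, Il2rb and Ccl5 of cytokine and chemokine signalling, and Trdc and Tcrg-C2 of the gamma-delta T cell receptor. They were chosen by symbol among the 46517 gene identifiers in the deposited count files, with their levels in the control, knockout and transgenic groups already known. For that reason the values that chose them are given as levels and differences with no test between genotypes, and tests are kept for sex and for 151 other genes of the same roles. Those 151 were also listed with earlier results of these data known. All libraries came from live CD4+CD8+ (double-positive) cells sorted from the thymus of mice 6 to 7 weeks old. The 6 controls were NOD-AI4 mice (3 male, 3 female), that is NOD mice carrying the AI4 T cell receptor of an autoreactive CD8 T cell clone. The 5 mice labelled NOD-AI4-Nfkbid-/- (4 male, 1 female) are the knockout, and the 5 NOD-AI4-60A mice (3 male, 2 female) carry an Nfkbid transgene, so that AI4 is common to every group. The labels used here do not name the promoter of the 60A transgene. Each library is 1 mouse, and the series asks how too much or too little Nfkbid, an atypical IκB protein that modulates NF-κB, alters the thymic loss of AI4 cells.

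Cytotoxic lymphocytes kill by releasing granules that hold perforin, which opens pores in the target membrane, and granzymes, proteases that enter through it. Natural killer (NK) cells, effector CD8 T cells and some gamma-delta and other innate-like T cells carry this machinery, whereas most double-positive thymocytes are immature and have not acquired effector function. The delta constant gene Trdc lies inside the T cell receptor alpha locus and is cut out when an alpha V segment joins a J segment, and the gamma constant genes form small near-copied clusters of their own.

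Library depth ran from 17955743 to 26586220 estimated counts among controls, from 21662210 to 35637813 among the knockouts and from 18546570 to 25836799 among the transgenics. Levels are in CPM, the count of a gene scaled to a common library total, as mean ± SD over mice. The targeted gene stood at 32.7 ± 2.87 CPM in controls (n = 6), 31.6 ± 4.30 CPM in the knockout-labelled libraries (n = 5) and 208.1 ± 72.1 CPM in transgenic libraries (n = 5). Since Nfkbid counts were not lower in the libraries labelled knockout, these are called knockout-labelled throughout. Mouse identifiers of all controls begin with AT and those of all other mice with LS, so that genotype and identifier series cannot be told apart in any contrast with controls. In bulk RNA, more cells of a type and more RNA per cell cannot be told apart either. A pair of libraries stood apart from their groups in gamma-delta genes, control 6 and knockout 4, and the members' differences are given with and without them.

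Promoters are shown for the 4 granule genes, the members with an entry among the RefSeq promoter sequences used (GRCm38.p6, 250 bases before the start to 50 after). They were set side by side because the granule genes differed widely in level in these cells. Capitals mark matches, on either strand, to 3 motifs: TGTGGT (the Runx core), TGANTCA (AP-1) and AGGTGTGA (T-box).

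Gzma, chr13:113100932-113101231, - strand: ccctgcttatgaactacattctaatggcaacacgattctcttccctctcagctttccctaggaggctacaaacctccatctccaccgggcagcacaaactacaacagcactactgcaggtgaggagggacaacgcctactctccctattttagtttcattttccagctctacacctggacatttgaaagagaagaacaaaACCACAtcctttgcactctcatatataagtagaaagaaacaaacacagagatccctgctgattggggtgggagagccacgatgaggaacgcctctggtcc

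Gzmb, chr14:56262285-56262584, - strand: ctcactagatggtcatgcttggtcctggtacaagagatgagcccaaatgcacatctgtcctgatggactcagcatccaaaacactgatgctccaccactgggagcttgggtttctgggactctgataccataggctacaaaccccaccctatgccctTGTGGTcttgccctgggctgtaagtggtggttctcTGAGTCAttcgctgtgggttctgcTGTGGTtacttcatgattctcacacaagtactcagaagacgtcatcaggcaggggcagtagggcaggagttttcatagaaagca

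Prf1, chr10:61297586-61297885, + strand: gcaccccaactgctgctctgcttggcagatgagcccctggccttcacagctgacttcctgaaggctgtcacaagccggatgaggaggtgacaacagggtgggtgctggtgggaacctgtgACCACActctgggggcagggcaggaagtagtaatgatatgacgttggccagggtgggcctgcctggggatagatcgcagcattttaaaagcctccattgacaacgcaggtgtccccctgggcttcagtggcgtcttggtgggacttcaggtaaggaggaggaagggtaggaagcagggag

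Nkg7, chr7:43436888-43437187, + strand: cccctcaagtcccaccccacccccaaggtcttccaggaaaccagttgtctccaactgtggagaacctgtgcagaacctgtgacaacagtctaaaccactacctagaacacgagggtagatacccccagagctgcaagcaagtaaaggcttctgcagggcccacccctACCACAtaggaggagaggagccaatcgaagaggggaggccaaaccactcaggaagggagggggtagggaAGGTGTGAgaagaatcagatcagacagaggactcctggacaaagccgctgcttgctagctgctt

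The Runx core was present in all 4, at bases -50 to -45 from the start in Gzma, -130 to -125 in Prf1, -83 to -78 in Nkg7, and at both -93 to -88 and -34 to -29 in Gzmb. It occurs in 16.8% of the 32851 promoters of this length. Gzmb alone of the 4 held an AP-1 match, at -58 to -52 (7.81% of all promoters), and Nkg7 alone a T-box match, at -14 to -7 (1.28% of all promoters). Neither the letters TATAAA (13.6% of all promoters) nor the kappaB motif (8.46%) was found in these windows. A match describes the letters and not the binding of a factor.

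Gzma (ENSMUSG00000023132, chr13:113093825-113100981, minus strand) encodes granzyme A, a trypsin-like granule protease. Controls 1 to 6 had 131.1, 114.7, 99.2, 94.0, 97.0 and 83.6 CPM. Knockout-labelled libraries 1 to 5 had 158.8, 177.7, 167.4, 365.3 and 109.9 CPM, and transgenic libraries 1 to 5 had 183.2, 231.0, 271.0, 221.6 and 250.2 CPM. Every transgenic library was above every control, while knockout 5 lay within the control range and knockout 4 above all other libraries. Such separation, here and in the members below, stands beside 23.0% of all tested genes called higher in transgenic against control libraries. Against knockout-labelled libraries that share was 1.07%. The group means were 103.3 ± 16.9, 195.8 ± 98.2 and 231.4 ± 33.0 CPM, in that order. The log2 difference was 0.83 (SE 0.24) for knockout-labelled against control, 1.14 (SE 0.23) for transgenic against control and 0.30 (SE 0.24) for transgenic against knockout-labelled. Without knockout 4 the first of these was 0.50 and the last 0.61, and without knockout 5 the last was 0.15.

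Gzmb (ENSMUSG00000015437, chr14:56258838-56262260, minus strand) encodes granzyme B, which cuts after aspartate and activates caspases. It was nearly unread: 1 read in the 6 controls, all in control 1, 3 reads in the knockout-labelled libraries (1 in knockout 1 and 2 in knockout 2), and 46 in the transgenic libraries, as 18, 14, 11, 2 and 1 read. This makes 0.878 CPM in transgenic 1 and 0.048 CPM in transgenic 5, so the transgenic group ranged from well above the other groups to the level of a single read. Relative to library totals, the transgenic sum was 56.1 times that of controls (95% exact counting interval 9.59 to 2265) and 18.05 times that of knockout-labelled libraries (5.80 to 90.7), and the knockout-labelled sum was 3.11 times that of controls (0.25 to 163.3). These intervals pool the reads of all mice in a group, cover counting error only and not the spread between mice, and are no test between genotypes. Gzmb is the member that did not pass the filter on low counts, which the other 7 passed.

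Prf1 (ENSMUSG00000037202, chr10:61297833-61304680, plus strand) encodes perforin. Its levels were 8.88, 9.22, 8.13, 8.60, 7.32 and 8.11 CPM in controls 1 to 6, 12.1, 8.90, 11.0, 7.95 and 11.6 CPM in knockout-labelled 1 to 5, and 11.8, 9.22, 13.6, 10.6 and 10.5 CPM in transgenic 1 to 5. Knockout 4, the highest for Gzma, was the lowest of its group for Prf1, within the control range, and transgenic 2 was level with control 2, the highest control. The log2 differences were small beside those of Gzma, at 0.29 (SE 0.12) for knockout-labelled against control, 0.41 (SE 0.12) for transgenic against control and 0.12 (SE 0.13) for transgenic against knockout-labelled. The first was 0.16 without knockout 1, and the last was 0.030 without transgenic 3 and 0.24 without knockout 1. That last value was -0.0015 without control 2 and transgenic 3 and 5, the libraries high in interferon-response transcripts.

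Nkg7 (ENSMUSG00000004612, chr7:43437073-43438249, plus strand) encodes a membrane protein of cytotoxic granules. Controls ran from 0.962 CPM in control 2 to 3.71 and 3.86 CPM in controls 1 and 6. The knockout-labelled libraries ran from 1.42 CPM in knockout 4 to 5.01 CPM in knockout 1, and the transgenic libraries from 3.47 to 4.78 CPM. The groups overlapped: both high controls reached the transgenic range. Log2 differences were 0.41 (SE 0.35) for knockout-labelled and 0.85 (SE 0.34) for transgenic against control, and 0.44 (SE 0.35) for transgenic against knockout-labelled. The first ran from 0.097 without knockout 1 to 0.83 without control 1, and the last from 0.28 without knockout 4 to 0.73 without knockout 1.

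Il2rb (ENSMUSG00000068227, chr15:78479256-78495271, minus strand) encodes the beta chain shared by the receptors for IL-2 and IL-15, cytokines on which NK and memory-like CD8 T cells depend. Controls 1 to 6 had 3.06, 1.81, 1.17, 0.821, 1.34 and 2.76 CPM. Knockout-labelled 1 to 5 had 4.37, 3.28, 2.61, 5.00 and 2.90 CPM, and transgenic 1 to 5 had 8.05, 6.25, 3.73, 5.32 and 4.43 CPM. All transgenic libraries exceeded all controls, and the knockout-labelled libraries overlapped both groups. Against control the log2 difference was 1.04 (SE 0.30) in knockout-labelled and 1.58 (SE 0.30) in transgenic libraries, and between these it was 0.54 (SE 0.30).

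Ccl5 (ENSMUSG00000035042, chr11:83525778-83530518, minus strand) encodes a chemokine of activated T and NK cells. Transgenic 1 to 5 had 3.41, 1.64, 1.04, 0.904 and 1.24 CPM, from 70, 42, 24, 17 and 26 reads. The highest control had 0.383 CPM and the highest knockout-labelled library 0.511 CPM, and no library of either group had more than 12 reads. The transgenic group thus did not overlap the others, although its own highest library was several times its lowest. Of all tested genes, 23.0% were called higher in transgenic libraries against control and 1.07% against knockout-labelled libraries. The log2 difference was 2.50 (SE 0.44) for transgenic against control and 2.53 (SE 0.48) for transgenic against knockout-labelled, 2 contrasts that share the transgenic libraries. Between knockout-labelled and control it was -0.03 (SE 0.50). The sign of that last value turned in 5 of the fits that left out 1 library. Ccl5 reached the minimum of the filter on low counts in all 5 transgenic libraries and in 1 other, so that it passed through the group in which it is high.

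Trdc (ENSMUSG00000104876, chr14:54142851-54148868, plus strand) is the constant gene of the T cell receptor delta chain. Controls 1 to 6 had 497.6, 433.4, 463.7, 441.1, 417.9 and 618.8 CPM, knockout-labelled 1 to 5 had 574.0, 535.7, 533.9, 365.4 and 571.3 CPM, and transgenic 1 to 5 had 622.0, 696.4, 625.5, 641.5 and 584.3 CPM. Transgenic libraries were above every knockout-labelled library and above controls 1 to 5, while control 6 lay above transgenic 5 alone. Of all tested genes, 1.07% were called higher in transgenic against knockout-labelled libraries. Knockout 4 was the lowest of all 16. Log2 differences were 0.14 (SE 0.11), 0.42 (SE 0.11) and 0.28 (SE 0.12) for knockout-labelled against control, transgenic against control and transgenic against knockout-labelled. The first ran from 0.069 without knockout 5 to 0.20 without knockout 4, and the last was 0.18 without knockout 4. The gene overlaps Gm43434 and Trdv5 on the other strand, which had 4237 and 959 counts over all libraries. The sources used here do not say whether counting used strand, so Trdc and these partners are uncertain to that extent.

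Tcrg-C2 (ENSMUSG00000076752, chr13:19304649-19307551, minus strand) is a constant gene of the receptor gamma chain. Its level was 4.56, 1.70, 1.74, 2.08, 1.98 and 9.43 CPM in controls 1 to 6, 7.04, 6.26, 3.97, 2.93 and 6.14 CPM in knockout-labelled 1 to 5 and 8.88, 9.22, 9.16, 8.14 and 4.43 CPM in transgenic 1 to 5. Control 6 was the highest library of the series. The log2 difference was 0.74 (SE 0.42) for knockout-labelled and 1.24 (SE 0.40) for transgenic against control, and 0.50 (SE 0.42) between them. The first was 1.10 without control 6. Transcripts of Tcrg-C2 and Tcrg-C1 are 96.0% identical and share 17.9% of their 50-base windows, so reads may have been split between these copies. For Tcrg-C2 and Tcrg-C3 the values are 97.0% and 7.98%, and Tcrg-C4, at 72.7% identity, shares no such window.

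Without control 6 and knockout 4 together, the log2 difference of knockout-labelled from control libraries was 0.49 for Gzma, 0.35 for Prf1, 0.70 for Nkg7, 0.96 for Il2rb, -0.26 for Ccl5, 0.28 for Trdc and 1.26 for Tcrg-C2. That of transgenic from control libraries was 1.08, 0.38, 0.99, 1.66, 2.28, 0.47 and 1.67 for the same genes in the same order. Between transgenic and knockout-labelled libraries it was 0.60, 0.029, 0.29, 0.70, 2.53, 0.18 and 0.41. Leaving out these libraries thus made the knockout-labelled difference smaller for Gzma and larger for Nkg7, Trdc and Tcrg-C2.

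**Figure D1:**
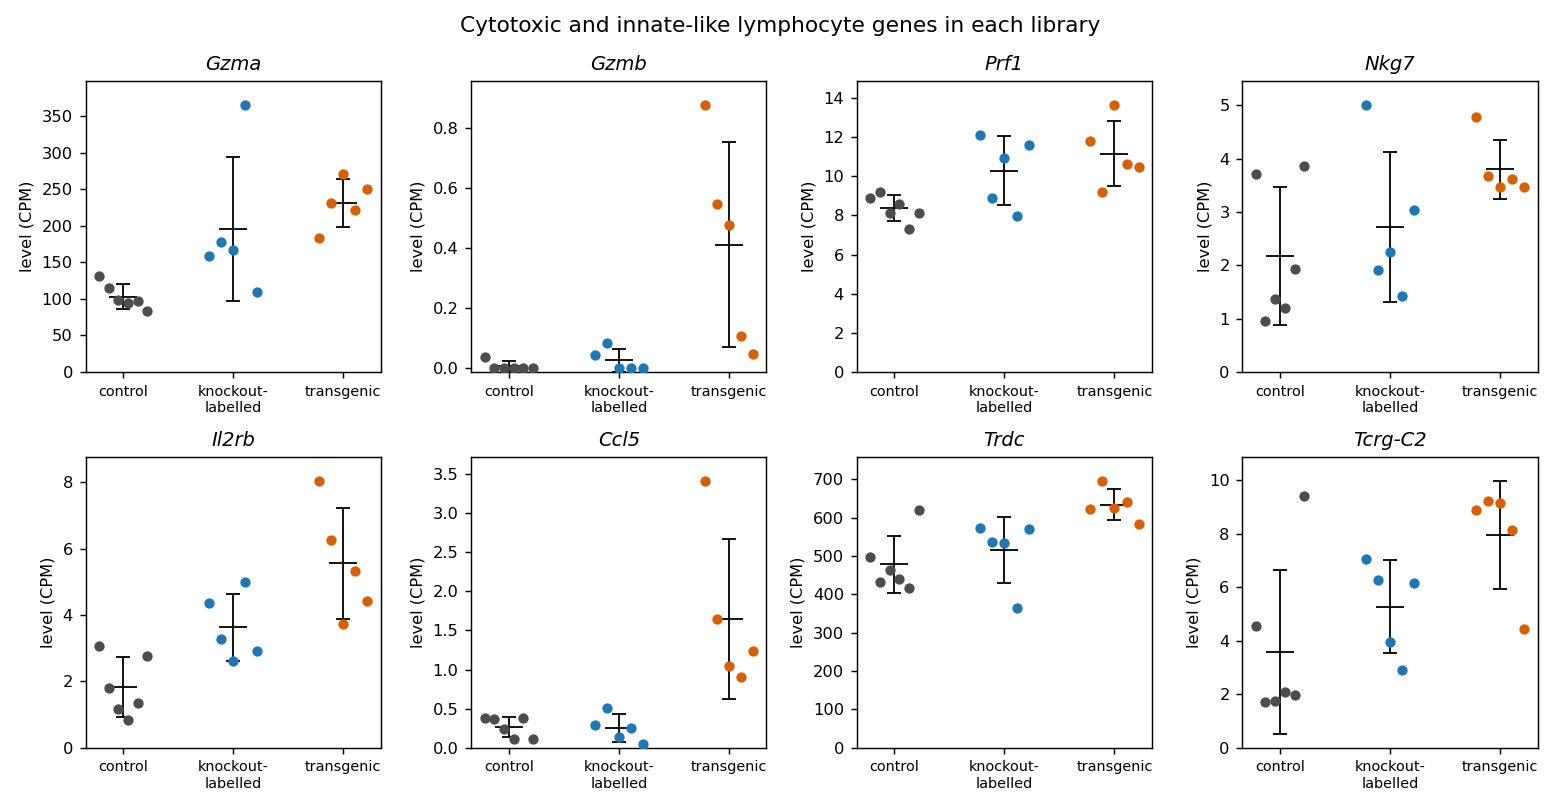
Level of each of the 8 genes (vertical axes, CPM) in the 6 control, 5 knockout-labelled and 5 transgenic libraries. Points are libraries in replicate order, and black marks and bars give mean ± SD. Transgenic libraries sit above all controls for Gzma, Il2rb and Ccl5, knockout 4 stands alone at 365.3 CPM for Gzma, and control 6 reaches 9.43 CPM for Tcrg-C2. The genes were chosen with these values known, and 23.0% of all tested genes were called higher in transgenic against control libraries.

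Levels of different genes are comparable per length only. In TPM, a unit that allows for gene length, as the authors deposited it, Gzma (215.9 ± 36.8) and Trdc (206.7 ± 25.1) led in the 6 controls and differed by less than their SDs. Tcrg-C2 (7.00 ± 5.71), Prf1 (6.97 ± 0.62) and Nkg7 (4.49 ± 2.55) came next, with ranges of mean ± SD that overlap. Il2rb (1.21 ± 0.54) and Ccl5 (0.986 ± 0.496) were lower and likewise within each other's SD, and Gzmb (0.0078 ± 0.0191) was last. Granzyme A transcripts were therefore abundant in control cells in which granzyme B was close to unread. The transcripts of Gzma and Gzmb are 69.2% identical and share no 50-base window.

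Sex was not used to choose the genes, so it could be tested. None of the 7 tested members differed between males and females in edgeR's quasi-likelihood test, with adjusted p from 0.565 to 0.953, none with an unadjusted p under 0.05 and none called by DESeq2, which gave no adjusted p for Ccl5. Over all genes 0.141% were called. The male minus female log2 difference was 0.31 (SE 0.20) for Gzma and -0.55 (SE 0.35) for Tcrg-C2, so differences of these sizes were within the error of the design. The members were not shown to be alike in the sexes.

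Among the libraries, with group and sex means removed, log2 levels of Trdc and Tcrg-C2 moved together (Pearson r = 0.81 over 16 libraries, 0.79 without knockout 4 and control 6). Nkg7 followed both, with r = 0.77 for Tcrg-C2 and 0.68 for Trdc. Gzma and Trdc ran opposite ways (r = -0.67), but the value was -0.17 without knockout 4 and knockout 5. These libraries share the fitted means, and the values are descriptions. Among all genes averaging 1 CPM or more, those most like Gzma were Ddc (r = 0.91), Hecw2 (0.91), Greb1l (0.90) and Dnajc21 (0.87), and without knockout 4 and 5 these fell to 0.40, 0.56, 0.28 and 0.49. Those most like Trdc were Kctd12b (0.91), Arhgap15 (0.90), Gpr65 (0.89) and Pde7a (0.89), each at 0.78 or more without knockout 4 and control 6. Ebp (0.93), Polr2h (0.92), Rpl36a-ps2 (0.90) and Fkbp5 (0.89) were most like Il2rb, and Cox7c (0.86), Ddt (0.81), Pno1 (0.80) and Trav9n-3 (0.80) most like Ccl5.

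Gamma-delta genes outside the 8 members showed how knockout 4 and control 6 stood apart. Examples here were chosen after their values were seen. Tcrg-V4, a gamma variable segment, was at 5.14 CPM in knockout 4 and at most 0.547 CPM in each of the other 15 libraries. In the same library Tcrg-C1 had 10.4 CPM (next highest 3.75), Tcrg-C4 20.0 CPM (next 11.6), Blk, a Src-family kinase, 14.5 CPM (next 8.39), Zbtb16, the factor PLZF of innate-like T cells, 1.22 CPM (next 0.390) and the scavenger receptor gene Cd163l1 457.0 CPM (next 322.3, in control 6). Knockout 4 was thus the highest library for each of these, for Tcrg-V1 (2.87 CPM) and for Gzma, and the lowest for Trdc and for 5830411N06Rik, another scavenger receptor gene (123.6 CPM). Other gamma-delta genes also went the low way. Knockout 4 was the lowest of all libraries for Trdv2-1 (4.09 CPM), Trdv2-2 (7.33 CPM), Trdv3 (0.085 CPM) and Trdv4 (0.256 CPM). It was the lowest of its group for Trdv1, Trgv2 and Tcrg-C2. Control 6, in contrast, was the highest control for 5830411N06Rik (353.5 CPM), Cd163l1, Tcrg-C4 (10.2 CPM), Tcrg-C2 and Trdc, and the lowest control for Gzma. Control 1 also had Tcrg-C4 at 8.08 CPM and Tcrg-C1 at 3.75 CPM, while the other 4 controls had at most 1.46 and 0.547 CPM.

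**Figure D2:**
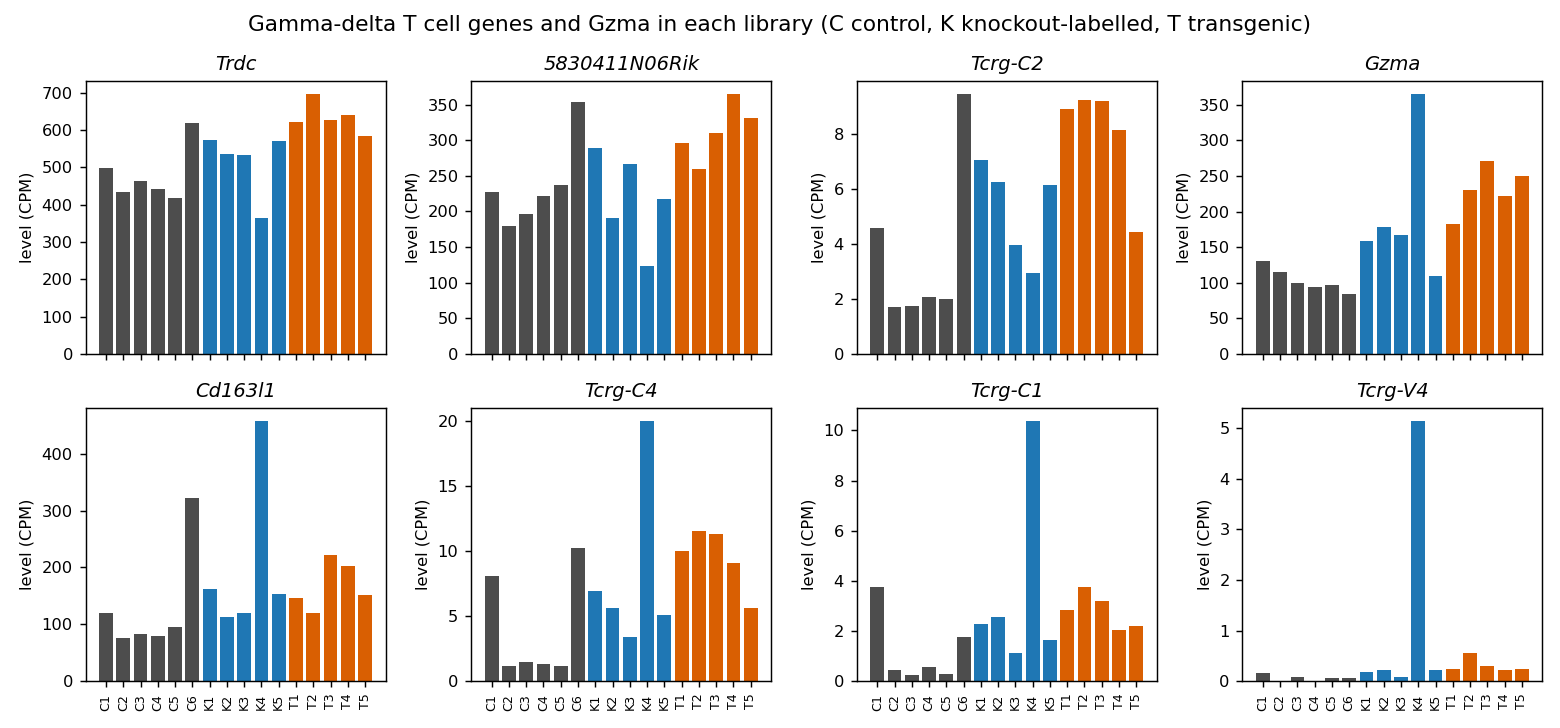
Level (vertical axes, CPM) of 7 gamma-delta T cell genes and Gzma in each library, with bars from 0 (C control, K knockout-labelled, T transgenic, by replicate number). Knockout 4 has the highest bar for Gzma, Cd163l1, Tcrg-C4, Tcrg-C1 and Tcrg-V4 and the lowest for Trdc and 5830411N06Rik.

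The wider list of 151 genes in 7 roles, none of them a member, was tested with edgeR's quasi-likelihood model over all 14933 genes that passed the filter. Of the 151, 149 were in the files, 16 had no estimated count in any library (20 once counts were rounded) and 78 were tested. In transgenic against control libraries 30 rose and 3 fell. Of all genes, 23.0% were called higher and 15.6% lower in that contrast, and 30 of 78 is a larger share than the former. The list was drawn up with earlier results of these data known, so this comparison is a description and no test of the list. With RLE size factors the split was 27 and 5 on the list and 2935 and 2807 over all genes, and with a filter of 1 CPM it was 20 and 5 on the list and 2755 and 2752 over all genes. Of the 30, 5 (Bhlhe40, Cx3cr1, Fcer1g, Slamf7 and Zeb2) reached the minimum of the filter on low counts in fewer than 5 of the 11 other libraries, and so were tested because of the transgenic libraries in which they are high. In knockout-labelled against control libraries 4 rose and 3 fell, where 16.4% of all genes were called higher and 10.0% lower, so 7 of 78 is no larger a share than the background. Which direction led depended on the filter: 2 were higher and 5 lower with a filter of 1 CPM, and 7 higher and 3 lower with none. That count of 7 was 15 without control 6 and knockout 4, and also 15 without control 1 alone or control 6 alone, 12 without knockout 5, and 4 without control 3, control 4 or knockout 1. Between transgenic and knockout-labelled libraries, which lie within 1 identifier series, 9 rose and none fell, against 1.07% higher and 0.0938% lower over all genes. Among the 9, Bhlhe40 and Zeb2 reached the minimum of the filter in 0 and 1 of the 11 other libraries. Both were thus tested because of the transgenic libraries. Hcst, also among the 9, lies beside Nfkbid, and the part of the transgene product in its counts was not tested. At an unadjusted p under 0.05 that contrast had 20 higher and 1 lower, and DESeq2 called 12 higher and none lower. Without transgenic 3, or without control 6 and knockout 4, the 9 were 5. In each role the gene with the highest mean CPM over all libraries is given too, a rank that does not allow for gene length. The list's median log2 difference was 0.11, 0.30 and 0.13 in these contrasts (knockout-labelled against control, transgenic against control, transgenic against knockout-labelled), beside 0.02, 0.03 and 0.00 over all genes tested.

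Granule machinery had 5 genes higher of 11 tested in transgenic against control libraries, and none higher in knockout-labelled against control libraries (1 at an unadjusted p under 0.05 in edgeR, and none by DESeq2). The shares over all genes, for this and the roles below, were 23.0% higher and 15.6% lower in the first contrast. In the second they were 16.4% and 10.0%. Each role holds few tested genes. Serpinb9, an inhibitor of granzyme B, had 3.83 to 6.95 CPM in controls, 5.80 to 7.07 CPM in knockout-labelled and 10.4 to 11.8 CPM in transgenic libraries. It rose by 1.11 on the log2 scale (SE 0.12, edgeR adjusted p = 1.48e-05) against control and by 0.84 (SE 0.13, edgeR adjusted p = 0.0017) against knockout-labelled libraries, with all transgenic libraries above all others. The latter call was lost without control 1 and knockout 1 to 3 (edgeR adjusted p = 0.056). Srgn, the granule proteoglycan serglycin, rose by 0.51 (SE 0.09, edgeR adjusted p = 0.000455) from 90.3 ± 14.2 CPM (n = 6) to 127.5 ± 15.5 CPM (n = 5). The other 3 were Tnfsf10, which encodes the death ligand TRAIL, and the cathepsin genes Ctsw and Ctsc. Tnfsf10 also rose against knockout-labelled libraries, by 0.55 (SE 0.12, edgeR adjusted p = 0.021). That call was lost in 11 of 28 alternative fits (edgeR adjusted p up to 0.322). Among them were those without knockout 1, 3 or 5 or transgenic 1, 3 or 5. The fit without control 2 and transgenic 3 and 5, the libraries high in interferon-response transcripts, lost it too. These 3 libraries had the highest Tnfsf10 of their groups. The call of Ctsc against control was lost in 7 of 28 alternative fits (up to 0.320). These included males only and the fits without control 2 or 5 or transgenic 1, 2 or 4. The fit without control 2 and transgenic 3 and 5 was another. Unc13d, which primes granules for release and was highest of the role in CPM, was at 143.1 ± 15.2, 129.5 ± 10.0 and 139.0 ± 11.9 CPM and was not called. Gzmk, a granzyme of memory T cells, was at 0 in all 11 control and knockout-labelled libraries and between 0.053 and 0.293 CPM in the 5 transgenic libraries, too low to be tested. Gzmm, another granzyme gene, was tested and not called by edgeR in any genotype contrast (0.31 ± 0.19, 0.40 ± 0.20 and 0.55 ± 0.17 CPM). Fasl, also too low to be tested, had means of 0.11, 0.16 and 0.11 CPM in the control, knockout-labelled and transgenic groups.

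NK receptors and adaptors had 6 genes higher of 11 tested in transgenic against control libraries and 3 in knockout-labelled against control libraries. Of its 39 genes, 28 did not pass the filter on low counts. Tyrobp, the adaptor DAP12, had 0.053 to 0.727 CPM in controls, 0.295 to 1.06 CPM in knockout-labelled and 1.76 to 2.00 CPM in transgenic libraries. It rose by 2.48 (SE 0.37, edgeR adjusted p = 0.00013) in transgenic and by 1.22 (SE 0.39, edgeR adjusted p = 0.029) in knockout-labelled libraries, on the log2 scale. Fcer1g, an adaptor chain of Fc receptors, rose by 3.03 (SE 0.57) and 1.94 (SE 0.63), and Slamf7 by 3.11 (SE 0.67) and 2.21 (SE 0.72), in the same order. In knockout-labelled libraries the call of Tyrobp was lost in 11 of 28 alternative fits, among them those without control 2, 3 or 4 or knockout 1, 2, 3 or 4 (edgeR adjusted p up to 0.191). That of Fcer1g was lost in 8 of 26, among them those without control 3, 4 or 5 or knockout 1 or 2 (up to 0.227), and that of Slamf7 in 11 of 26, among them those without control 2, 3, 4 or 5 or knockout 1, 2 or 3 (up to 0.859, where its sign turned in 1). Cd160 was called in transgenic against control libraries but lost in 19 of 28. Slamf7 had 0.721 to 0.851 CPM in knockout 1 to 3 and 0.057 and 0.084 CPM in knockout 4 and 5. Hcst, the adaptor DAP10, had 3.93 to 6.23 CPM in controls, 4.01 to 7.38 CPM in knockout-labelled and 12.6 to 28.0 CPM in transgenic libraries. It rose by 1.85 (SE 0.14, edgeR adjusted p = 6.0e-07) and by 1.69 (SE 0.15, edgeR adjusted p = 1.08e-05) against the other groups. Hcst (chr7:30417712-30419854, minus strand) and Tyrobp (chr7:30413760-30417585, plus strand) lie directly beside Nfkbid (chr7:30421732-30428746, plus strand). Within the transgenic group Hcst was highest in transgenic 1 and lowest in transgenic 3, the libraries with the most (309.6 CPM) and the fewest (114.7 CPM) Nfkbid counts, and the part of the neighbouring transgene product in its counts was not tested. Sh2d2a, the highest gene of the role in CPM, was at 210.1 ± 7.8, 197.8 ± 16.6 and 213.9 ± 13.8 CPM and was not called.

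All 4 tested chemokine receptor genes were higher in transgenic against control libraries, among them Ccr2, Cx3cr1 and Cxcr6, beside 23.0% of all genes. The role lists 11 genes, and the others did not pass the filter on low counts. Of these, Ccl4 (0.239 and 0.160 CPM) and S1pr5 (0.022 and 0 CPM) had lower means in transgenic than in control libraries. The rest of the untested genes had higher means. Cxcr6, a receptor of tissue-resident and innate-like T cells, was at 1.28 ± 0.34 CPM in controls and 1.95 ± 0.39 CPM in transgenic libraries (log2 0.60, SE 0.19, edgeR adjusted p = 0.021). That call was lost in 4 of 28 alternative fits, among them those without control 2, control 5 or transgenic 2, its highest library (edgeR adjusted p up to 0.423). Cx3cr1, the fractalkine receptor, lost its call in 6 of 26 alternative fits (up to 0.146). These included males only and the fits without control 2 or 3 or transgenic 1 or 4. The fit without control 2 and transgenic 3 and 5 was another. None of the 4 was called in knockout-labelled against control libraries (1 at an unadjusted p under 0.05, none by DESeq2).

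In the IL-2, IL-15, IL-12 and IL-18 pathway 5 genes rose and 1 fell of 13 tested in transgenic against control libraries. Il12rb2, a chain of the IL-12 receptor, was the member of the list with the smallest p in knockout-labelled against control libraries. It had 20.1 to 34.8 CPM in controls, 39.6 to 49.0 CPM in knockout-labelled and 37.9 to 53.8 CPM in transgenic libraries, with both of the latter above all controls. It rose by 0.84 (SE 0.09, edgeR adjusted p = 0.00013) in knockout-labelled and by 0.74 (SE 0.09, edgeR adjusted p = 2.35e-05) in transgenic libraries, and kept both calls in all 28 alternative fits. Il15ra, which presents IL-15 to cells bearing Il2rb, had 0.850 to 1.66, 0.881 to 2.21 and 2.92 to 3.37 CPM in the control, knockout-labelled and transgenic groups. Its log2 rise was 1.25 (SE 0.20, edgeR adjusted p = 0.00023) against control and 0.98 (SE 0.21, edgeR adjusted p = 0.026) against knockout-labelled libraries, the latter lost in 9 of 28 fits, among them those without knockout 1 or 5 or transgenic 3 or 5 (edgeR adjusted p up to 0.357). Cish, a feedback gene of STAT5, Il12rb1 and Jak3 were also higher, and Stat5b was lower. The call of Stat5b was lost in 2 of 28 alternative fits, among them that without transgenic 3 (edgeR adjusted p up to 0.0689). That of Jak3 was lost in 10 of 28 (up to 0.126). These included the fits without control 1, 2, 3 or 4 or transgenic 1, 4 or 5. Jak1, the highest of the role in CPM, stayed at 736.1 ± 64.3, 748.7 ± 112.6 and 754.1 ± 50.2 CPM with no call. Ifng, the interferon that NK and cytotoxic cells secrete, was at or under 0.146 CPM in every library and was not tested.

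Transcription factors of innate-like lymphocytes included 6 that rose and 2 that fell of 17 tested in transgenic against control libraries, and 3 that fell with none called higher in knockout-labelled against control libraries (1 rose at an unadjusted p under 0.05, and 1 by DESeq2). Ikzf2, the factor Helios, fell on the log2 scale by 0.38 (SE 0.09, edgeR adjusted p = 0.0054) in knockout-labelled and by 0.42 (SE 0.09, edgeR adjusted p = 0.0014) in transgenic libraries, from 525.3 ± 44.4 CPM in controls (n = 6). Maf fell by 0.71 (SE 0.17, edgeR adjusted p = 0.0070) in knockout-labelled libraries, to 9.24 ± 0.58 CPM from 14.6 ± 3.17 CPM. In knockout-labelled libraries the calls of Ikzf2 and Maf were lost without control 1 and knockout 1 to 3 (edgeR adjusted p = 0.292 and 0.0886). Of the 6 that rose in transgenic libraries, Gata3 and Id3 lost their calls in 21 and 18 of 28 alternative fits. Bhlhe40, a factor of activated T cells, had 0.074 to 0.230 CPM in controls and 0.703 to 1.22 CPM in transgenic libraries, a log2 rise of 2.65 (SE 0.36, edgeR adjusted p = 7.1e-05), and of 1.89 (SE 0.35, edgeR adjusted p = 0.0097) against knockout-labelled libraries. The latter call was lost in 3 of 27 alternative fits (edgeR adjusted p up to 0.163), and no library of the other groups reached the minimum of the filter for this gene. Zeb2, a factor of terminal effector and of myeloid cells, rose by 1.69 (SE 0.35) and 1.85 (SE 0.38) in the same contrasts. The latter call was lost in 4 of 27 alternative fits, among them those without knockout 4 or transgenic 3 (edgeR adjusted p up to 0.148). Eomes, a T-box factor of NK and memory CD8 cells, was too low to be tested, with 0 to 0.153, 0.127 to 0.341 and 0.333 to 0.904 CPM in the control, knockout-labelled and transgenic groups. Tbx21, also a T-box factor, was tested and had 0.65 ± 0.20, 1.01 ± 0.33 and 0.74 ± 0.33 CPM in the same order. Id2 had 15.9 ± 0.67, 16.7 ± 3.04 and 13.4 ± 1.18 CPM. Neither Tbx21 nor Id2 was called by edgeR in any genotype contrast.

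Of the other gamma-delta genes 12 were tested. In transgenic against control libraries 1 was higher, Trgv2, a gamma variable segment, by 1.34 (SE 0.40, edgeR adjusted p = 0.016, and 0.132 without the interferon-high libraries control 2 and transgenic 3 and 5), and in knockout-labelled against control libraries none was called (1 higher and 1 lower at an unadjusted p under 0.05 in edgeR, and the same counts by DESeq2). 5830411N06Rik, the highest of the role in CPM, was at 236.2 ± 61.2, 217.3 ± 65.3 and 312.5 ± 39.4 CPM, with an edgeR adjusted p of 0.090 in transgenic against control libraries. Innate-like and memory-like T cell genes had 3 of 10 tested higher in transgenic libraries against each other group. Ly6a, the Sca-1 antigen, which interferon induces, had 10.8, 6.80, 62.1, 5.85 and 26.9 CPM in transgenic 1 to 5, 0.589 to 1.40 CPM in knockout-labelled libraries and 0.274 to 8.99 CPM in controls. Its log2 rise was 3.44 (SE 0.72) against control and 4.91 (SE 0.85, edgeR adjusted p = 0.012) against knockout-labelled libraries, the latter lost in 4 of 28 alternative fits, including that without control 6 and knockout 4. Ms4a4c rose by 2.33 (SE 0.33, edgeR adjusted p = 9.37e-05) and 2.33 (SE 0.35, edgeR adjusted p = 0.0013), and Ms4a4b, a gene of mature T cells, rose in both as well, though against knockout-labelled libraries its call was lost in 17 of 28 alternative fits (edgeR adjusted p up to 0.217). Transgenic 3 and 5 and control 2 had the highest Ly6a and Ms4a4c of their groups. Sh2d1a, the adaptor SAP of innate-like T cells and the highest of the role in CPM, was at 106.4 ± 5.7, 105.2 ± 5.8 and 103.9 ± 9.1 CPM and was not called.

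**Figure D3:**
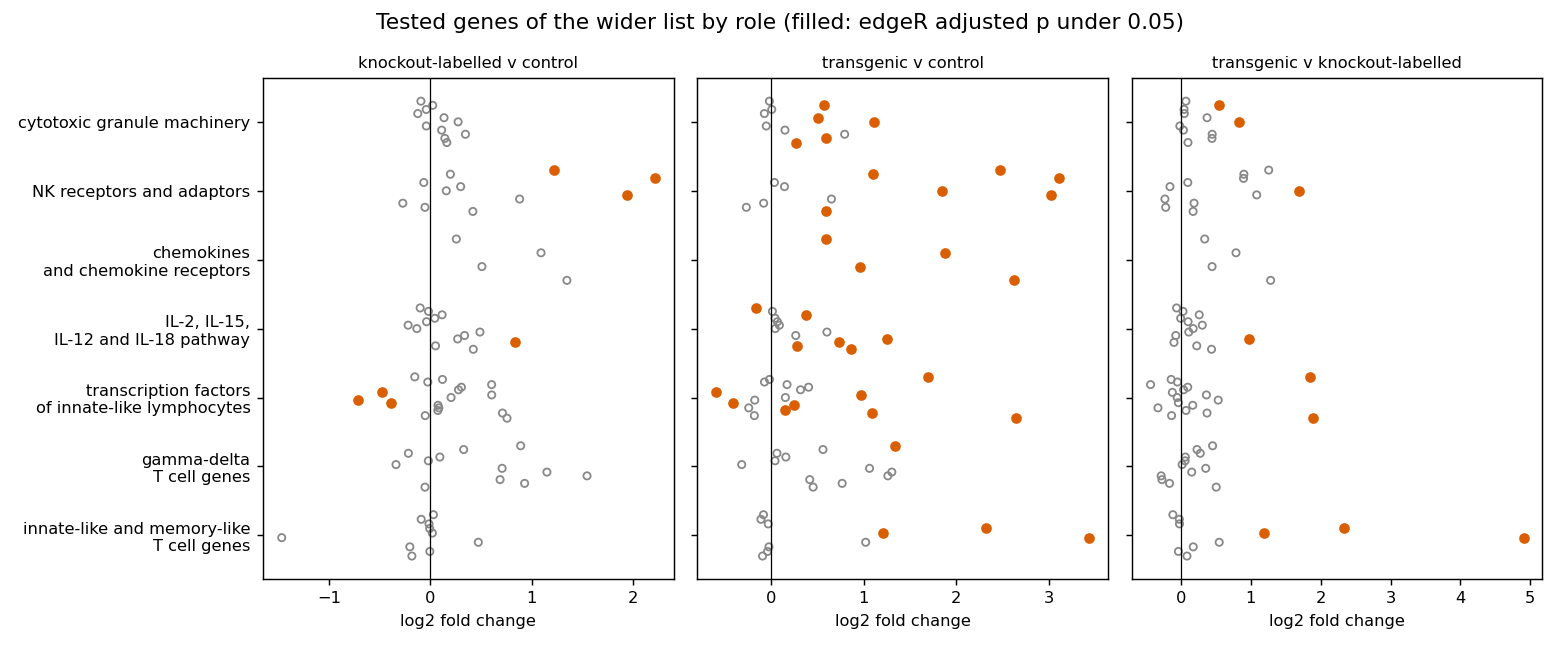
Log2 fold change (horizontal axes) of the 78 tested genes of the wider list, by role (vertical axis), in the 3 genotype contrasts, with genes spread within a role by name. Filled points are genes called by edgeR at an adjusted p under 0.05 and open points are not called; 30 of the filled points lie above 0 in transgenic against control libraries, against 4 in knockout-labelled against control libraries.

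Summed levels of several marker lists of other cells that a double-positive gate could hold differed between these groups, though not those of every marker. The 7 NK markers summed to 1.44 to 2.26 CPM in controls, 1.73 to 3.62 CPM in knockout-labelled and 3.71 to 4.73 CPM in transgenic libraries, and 4 of them (Ncr1, Klra8, Klre1, Klri2) stayed under 0.5 CPM in every library. Tyrobp, which is also a gene of macrophages and dendritic cells and lies beside Nfkbid, is among the 7. Only Tyrobp and Klrb1c were tested, and Klrb1c was not called in any genotype contrast. Its level was 1.20 ± 0.16, 1.45 ± 0.56 and 1.32 ± 0.35 CPM in the control, knockout-labelled and transgenic groups. Gamma-delta markers, Trdc and Tcrg-C2 among them, summed to 516.3 to 971.4, 668.8 to 865.3 and 755.5 to 882.7 CPM in the same order, the highest value being control 6. Trdc and Cd163l1 made up most of these sums, since each other marker of the list had at most 20.0 CPM in any library. In knockout 4 Trdc was the lowest of all libraries (365.4 CPM) and Cd163l1 the highest (457.0 CPM). Markers of mature single-positive thymocytes were higher in transgenic libraries, in which 8 of 9 tested rose against control (589.0 to 944.1 CPM in controls, 702.5 to 886.0 CPM in knockout-labelled, 1044 to 1510 CPM in transgenic libraries). Of all genes, 23.0% were called higher in that contrast. Double-positive markers summed to 5126 to 7834 CPM in controls, with control 6 the lowest, to 5411 to 6892 CPM in knockout-labelled and to 5283 to 5943 CPM in transgenic libraries, where 7 of 10 fell and 1 rose against control, beside 15.6% of all genes called lower. Macrophage and dendritic cell markers summed to 5.98 to 11.6, 4.15 to 14.5 and 19.1 to 24.9 CPM, with 9 of 11 tested higher in transgenic against control libraries (23.0% over all genes) and 3 of 14 under 0.5 CPM in every library. B cell markers summed to 8.55 to 28.8 CPM in controls, to 77.6, 78.5, 92.3, 9.40 and 10.3 CPM in knockout-labelled 1 to 5 and to 55.5 to 119.7 CPM in transgenic libraries. Granulocyte markers stayed at or under 0.842 CPM in sum, and erythroid markers summed to 5.26 to 130.8 CPM with none of 5 tested called in any genotype contrast by edgeR. The part of these cells in the results above was not tested. Without control 1 and knockout 1 to 3, the libraries with the most class II transcripts of their groups, the log2 difference of transgenic from control libraries was 1.20 for Gzma, 0.40 for Prf1, 1.20 for Nkg7, 1.86 for Il2rb, 2.69 for Ccl5, 0.44 for Trdc and 1.50 for Tcrg-C2. That setting kept all 5 transgenic libraries, so it does not bear on B cell or class II transcripts in them. The difference of knockout-labelled from control libraries was then 1.15 for Gzma, 0.16 for Prf1, 0.65 for Nkg7 and 1.59 for Il2rb. For Ccl5 it was -0.25, for Trdc 0.051 and for Tcrg-C2 0.99. These values rest on 2 knockout-labelled libraries, of which 1 is knockout 4.

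**Figure D4:**
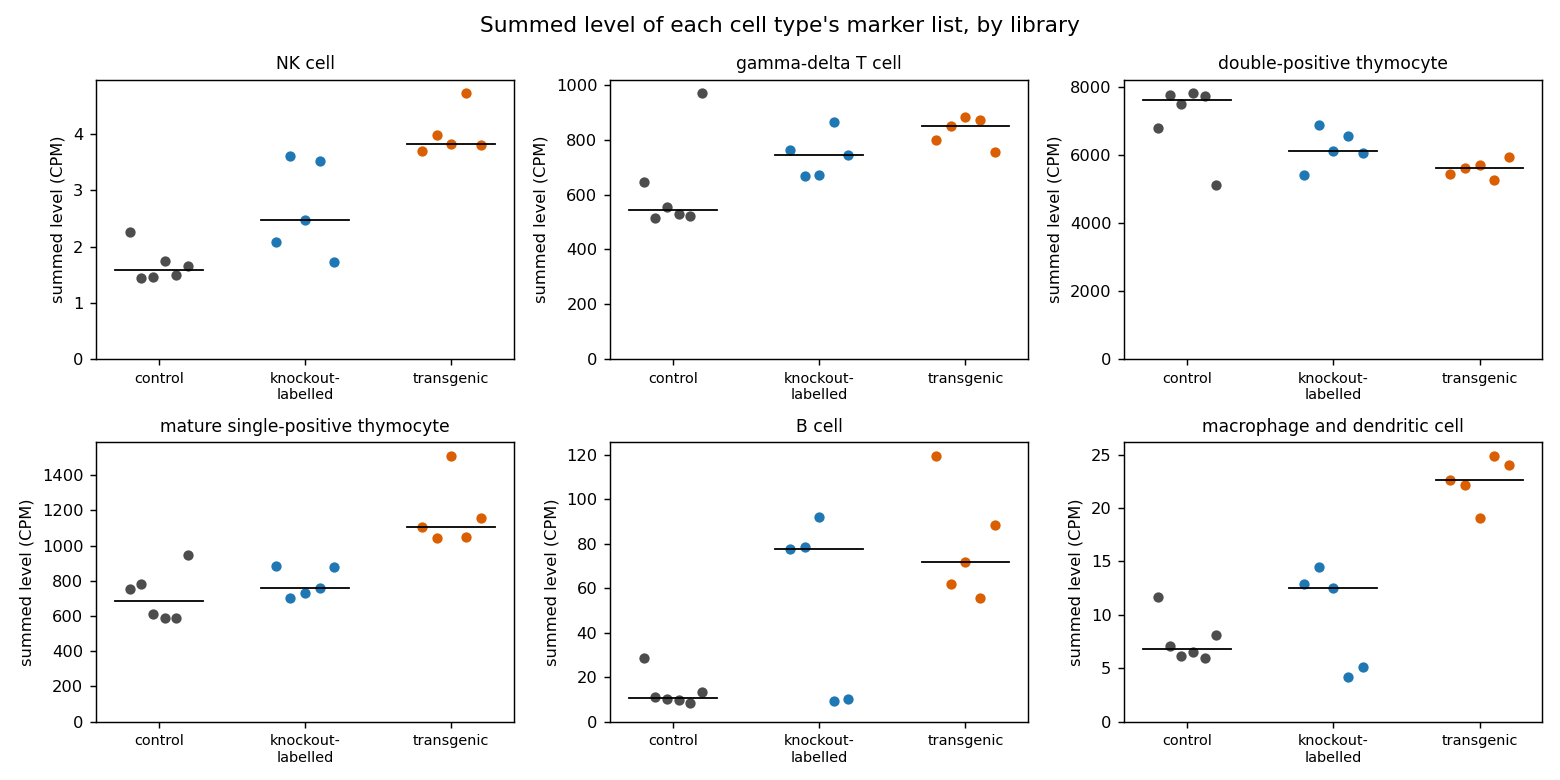
Summed level (vertical axes, CPM, from 0) of the marker lists of 6 cell types in each library, with group medians as lines. Transgenic libraries lie above all controls for the NK, mature single-positive, B cell and macrophage lists, and control 6 is the lowest control for double-positive and the highest for gamma-delta markers.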

How the data were processed

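Sorted thymocytes of 16 mice gave stranded KAPA libraries from RNA with a RIN above 9, per the labels' protocols. Reads were aligned by the authors to GRCm38 (mm10) with Bowtie 1.0.0 and SAMtools 0.1.18, and edgeR 3.24.3 is listed, per the submitters' processing notes. What turned alignments into counts is not named there. As deposited by the authors, each file holds an estimated count and a TPM value for every gene. TPM entered no test. Symbols came from a GENCODE annotation of GRCm38, for 46005 of 46517 identifiers; the other 512 held 0.171% of counts and stayed in library totals and tests.

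Expected counts were rounded and fitted with edgeR 4.0.16 (R 4.3.3): filtering by group, TMM scaling and the robust quasi-likelihood fit, with terms for group and sex, over all 16 libraries (12 residual degrees of freedom, two-sided p-values adjusted by Benjamini-Hochberg over 14933 genes, threshold 0.05). The script was tested on simulated data. CPM uses TMM-scaled totals, which set the precision of low genes at 17955743 to 35637813 counts. Gzmb intervals are exact conditional binomial ones. Likeness used residual log2 CPM with a prior count of 0.5.

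Members and lists were chosen with earlier results of these data known. Genes of the wider list were named when called, at most the 8 with the smallest p per contrast, plus the highest mean CPM of each role. The 4 genes most like Gzma, Il2rb, Ccl5 and Trdc were named by the largest correlation. Names beyond this were chosen after their values were seen. Alternatives were DESeq2 1.42.0, other scaling, filters, covariates and libraries left out. Some genes that the naming rule covers are not reported here.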

Additional observations from a re-analysis of the deposited data

Results flagged for a closer look

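Within groups of 5 or 6 libraries, 11 values were single libraries far from the others by Dixon's criterion, over 90 groups of values looked at, where chance gives about 1 in 20. Knockout 4 was apart for Gzma, at 365.3 CPM with the next at 177.7 CPM, and for Trdc, at 365.4 CPM with the next at 533.9 CPM. Control 6 was apart for Tcrg-C2 (9.43 CPM, next 4.56) and for 5830411N06Rik (353.5 CPM, next 237.6). Control 2 was apart for Ly6a (8.99 CPM, next 1.61) and Ms4a4c (1.07 CPM, next 0.364). Among transgenic libraries, transgenic 1 was apart for Nkg7 (4.78 CPM, next 3.67) and Fcer1g (1.22 CPM, next 0.619), transgenic 2 for Cxcr6 (2.62 CPM, next 1.86) and transgenic 5, as a low value, for Tcrg-C2 (4.43 CPM, next 8.14). The value of Gzmb in control 1, 0.0383 CPM against 0 in the other controls, is a single read.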

How the results depend on the processing

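The direction of the members' differences was kept in 746 of 758 alternative values and turned in 12, of which 5 are of male against female: Prf1 at -0.021, -0.020 and -0.046 without transgenic 2, transgenic 3 and the interferon-high libraries, and Il2rb at 0.32 and Tcrg-C2 at 0.10 with a replicate block. Ccl5 in knockout-labelled against control libraries, at -0.03, ran from -0.48 to 0.18 when 1 library was left out, turning to 0.18, 0.16, 0.023, 0.055 and 0.17 without control 1, control 2, knockout 1, knockout 3 and knockout 5, and to 0.087 without control 2 and transgenic 3 and 5, the libraries high in interferon-response transcripts. Prf1 in transgenic against knockout-labelled libraries turned to -0.0015 without those 3. Wider-list calls in knockout-labelled against control libraries numbered 7, and 11 by DESeq2, 4 with only the groups compared in the fit, 4 without the interferon-high libraries, 15 without control 6 and knockout 4, and 4 to 15 when 1 library was left out (15 without control 1 or control 6, 12 without knockout 5, 4 without control 3, control 4 or knockout 1). In transgenic against knockout-labelled libraries they numbered 9, and 3 in males only, 5 without the interferon-high libraries, 5 without control 6 and knockout 4 and 5 to 10 leaving out 1 library (5 without transgenic 3). In transgenic against control libraries they numbered 33, 19 in males only and 27 to 38 leaving out 1. Over all genes, transgenic against knockout-labelled calls numbered 174, and 342 by DESeq2, 278 with no filter, 106 in males only and 122 to 225 leaving out 1. Transgenic against control calls numbered 5765, 3160 in males only and 4687 to 5965 leaving out 1. Knockout-labelled against control calls numbered 3942, 1438 without the class II-high libraries, 2289 without the interferon-high ones and 2863 to 4253 leaving out 1. Male against female calls numbered 21, and 110 by DESeq2, 11 without the class II-high libraries and 17 to 50 leaving out 1 (50 without transgenic 2). The cause was not tested. The settings that left out several libraries were chosen after seeing the data. Size factors of another kind moved the median of all genes by at most 0.03 (log2).

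The main fits did not pair mice by replicate number. Of 15 correlations between same-numbered libraries, -0.19 to 0.42, 6 were over 0.1, and 5 were the best of their first library. Between knockout-labelled and transgenic libraries 1 to 5 they were 0.42, 0.15, -0.03, 0.12 and 0.17. Those of numbers 1, 2 and 5 were the best of the knockout-labelled library. What the replicate numbers stand for was not tested. With a replicate block, wider-list calls in knockout-labelled against control libraries numbered 21 and male against female calls 13.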
